A study of Homo sapiens with 6 samples.

Results

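Collagens are the structural proteins of the extracellular matrix, and each collagen molecule is built from 3 chains wound around each other. The genes of these chains were taken by name: every gene whose symbol is COL, a type number, A and a chain number, with nothing after it. This rule found 44 genes among the 58174 in the files, covering fibrillar, basement membrane, beaded filament, anchoring fibril, short-chain, fibril-associated, transmembrane and multiplexin collagens. Of these 44 chain genes, 16 reached an RPKM (read number corrected for gene length and for how many reads a sample had mapped) of 0.5 in at least 3 of the 6 samples and were tested, and 28 did not.

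The samples were T24 cells, an established human bladder cancer line, which the study used to ask what loss of UBC9, the conjugating enzyme that attaches SUMO to proteins, does to bladder cancer cells. Of the 6 samples, 3 carried a scrambled control shRNA (shRNA-NC) and 3 carried an shRNA against UBC9 (shRNA-UBC9). The UBC9 shRNA was delivered by a pLKO.1 lentivirus and stable cells were selected with puromycin; the vector of the control shRNA is not given in the sources used here. Because a single hairpin was used, loss of UBC9 and other effects of that hairpin cannot be told apart. No source used here says that the 3 samples of a group came from separate cultures, so p-values measure only the spread between these samples, which may be technical. In bulk RNA, fewer cells that express a gene and less RNA per cell cannot be told apart either.

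Fibrillar collagens form the fibrils of connective tissue, type IV chains form the sheet of basement membranes, and type VI chains form beaded filaments beside the cells. Fibril-associated collagens lie on the surface of fibrils, and transmembrane collagens span the membrane of the cell that makes them. Some types, such as types I, IV, V, VI and IX, are built from chains of more than 1 gene, while others, such as types XII, XIII and XVII, are built from copies of a single chain. Epithelial cells such as urothelium rest on a basement membrane and attach to it with the help of collagen chains, whereas fibrils are mainly made by fibroblasts.

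The relative depth of the samples, read from the steps of low values, was 1 to 1.16 in shRNA-NC and 0.945 to 1.21 in shRNA-UBC9, and the absolute depth is unknown. The summed RPKM of 8 epithelial markers was between 938.2 and 1107.8 in shRNA-NC and 426.0 to 563.5 in shRNA-UBC9. KRT7 was called lower, and KRT8, KRT18 and KRT19 were lower without overlap but not called. EPCAM went the other way, from a mean of 0.6576 to 1.505 RPKM, with overlapping groups and no call. CDH1, KRT5 and UPK2 were at or near 0 in all samples. Of 6 fibroblast markers 5 stayed under 0.1 RPKM in all samples and the sum was at most 1.04, with PDGFRB called lower. PDGFRB passed the filter only through shRNA-NC, where it was high, so its call is a description. Of 3 endothelial markers PECAM1 and VWF stayed under 0.1, and the sum was 2.64 to 3.26 in shRNA-NC and 0.316 to 1.07 in shRNA-UBC9. CDH5 was called lower, but it too passed the filter only through shRNA-NC, so this call is a description. The summed leukocyte markers stayed between 0.526 and 0.954 in both groups. The part of these marker shifts in the collagen results was not tested.

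RefSeq promoter windows (GRCh38.p14, 250 bases before and 50 after the start of a transcript) were found for 32 of the 44 chain genes and 11 of the 16 tested. The windows of COL4A2 and COL4A5 are shown because each is shared with a partner chain that is read in the opposite direction, and those of COL12A1, COL13A1 and COL17A1 because these chains changed. COL4A1 and COL4A2 start 126 bases apart on chromosome 13, and COL4A6 and COL4A5 start 379 bases apart on chromosome X. In both shared windows the capitals mark bases between the paired starts. The COL4A2 window is chr13:110307034-110307333 on the plus strand, and the COL4A5 window is chrX:108439588-108439887 on the plus strand.
COL4A2: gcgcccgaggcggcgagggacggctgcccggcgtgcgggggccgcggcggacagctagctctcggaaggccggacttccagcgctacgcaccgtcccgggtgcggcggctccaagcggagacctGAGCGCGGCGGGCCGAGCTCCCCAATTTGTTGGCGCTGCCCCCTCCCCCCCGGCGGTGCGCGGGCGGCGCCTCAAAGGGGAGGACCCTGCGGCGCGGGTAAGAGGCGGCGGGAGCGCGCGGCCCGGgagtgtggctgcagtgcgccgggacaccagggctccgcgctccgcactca
COL4A5: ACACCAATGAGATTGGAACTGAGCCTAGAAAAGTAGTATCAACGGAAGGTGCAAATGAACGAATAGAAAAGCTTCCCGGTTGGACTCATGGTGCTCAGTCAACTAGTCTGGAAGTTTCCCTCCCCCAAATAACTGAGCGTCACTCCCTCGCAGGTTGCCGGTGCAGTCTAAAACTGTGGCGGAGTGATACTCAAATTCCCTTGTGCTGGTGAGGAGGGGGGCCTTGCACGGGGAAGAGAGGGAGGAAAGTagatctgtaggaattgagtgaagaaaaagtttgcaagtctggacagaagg
In the other windows the capitals mark matches to the GC box GGGCGG, the CCAAT box CCAAT and the TATA box TATAAA, searched on both strands, so that a complement such as CCGCCC or ATTGG also counts. The COL12A1 window is chr6:75206004-75206303 on the minus strand, that of COL13A1 is chr10:69801656-69801955 on the plus strand, and that of COL17A1 is chr10:104085831-104086130 on the minus strand.
COL12A1: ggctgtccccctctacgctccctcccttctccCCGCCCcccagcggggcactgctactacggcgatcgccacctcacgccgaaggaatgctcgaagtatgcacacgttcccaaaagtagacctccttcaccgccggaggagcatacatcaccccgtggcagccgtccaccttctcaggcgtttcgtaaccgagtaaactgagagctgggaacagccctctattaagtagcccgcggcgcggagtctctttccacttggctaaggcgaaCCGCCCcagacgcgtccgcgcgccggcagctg
COL13A1: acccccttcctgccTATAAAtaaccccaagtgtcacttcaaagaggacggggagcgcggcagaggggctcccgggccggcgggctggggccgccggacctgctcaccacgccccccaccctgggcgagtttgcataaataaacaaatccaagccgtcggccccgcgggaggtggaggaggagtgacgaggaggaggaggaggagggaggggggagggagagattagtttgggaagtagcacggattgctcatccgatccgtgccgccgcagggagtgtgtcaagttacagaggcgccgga
COL17A1: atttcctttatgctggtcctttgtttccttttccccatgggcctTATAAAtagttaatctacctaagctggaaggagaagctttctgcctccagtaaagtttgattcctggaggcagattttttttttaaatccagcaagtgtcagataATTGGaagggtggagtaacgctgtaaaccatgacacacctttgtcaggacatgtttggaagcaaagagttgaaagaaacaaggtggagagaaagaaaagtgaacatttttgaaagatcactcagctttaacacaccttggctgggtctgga
The window of COL17A1 held 40.7% G and C, that of COL12A1 63.3% and that of COL13A1 64.0%. COL8A1, the other chain called higher, had no promoter window. COL6A2 and COL7A1, higher without overlap but not called, had windows with 79.3% and 62.3%. The 2 windows of COL18A1, lower without overlap but not called, held 86.7% and 66.3%. A link between base content and direction of change was not tested. Over the 13 windows of tested chains the median was 64.0%, and over all 35116 windows it was 58.7%. The GC box was found in 9 of the 13 windows and in 45.0% of all windows, the CCAAT box in 5 and in 34.6%, and the TATA box in 5 and in 11.5%. The windows of COL4A1 and COL4A2 overlap by 226 bases, and a COL4A6 window overlaps that of COL4A5 by 121. A match in such shared bases counts more than once. The AP-1 motif TGANTCA was found in none of the 13 windows and in 7.71% of all windows. These matches are letters in a window and were not tested as sites.

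In the comparison of shRNA-UBC9 with shRNA-NC, the collagen chains moved in both directions. COL17A1, a chain of the hemidesmosomes that fix epithelial cells to the basement membrane, and COL8A1, a short-chain collagen, were up-regulated. COL12A1, a chain that lies on fibrils, and COL13A1, a transmembrane chain, were down-regulated. COL5A2, the most abundant chain in shRNA-NC, and the basement membrane chains COL4A1 and COL4A2 were not called and their groups overlapped.

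A gene was called with a |log2 fold change| over 1 and an adjusted p below 0.05 in limma on log2(RPKM + 0.1). By this rule 2 of the 16 tested chains were up-regulated, against 5.20% of the 12428 tested genes, and 2 were down-regulated, against 2.70%. The other 12 were not called, with log2 fold changes between -0.89 and 0.97. With the adjusted p alone and no fold threshold, 9 chains passed, beside 36.8% of all tested genes. COL17A1, 1 of the 2 up-regulated chains, and COL1A1, 1 of the 9, passed the filter only through the group in which they were high, so these counts are no support for a change of the chains as a group. With no filter 39 chains were tested and 4 were called, COL16A1 and COL17A1 higher and COL12A1 and COL13A1 lower, against 5.27% of all genes called in either direction. In 6 chains every shRNA-UBC9 sample was above every shRNA-NC sample, beside 25.7% of all tested genes, and in 3 chains every one was below, beside 25.4%. The median log2 fold change of the 16 chains was 0.36, with 10 above 0 and 6 below, and that of all tested genes was 0.0048. COL17A1 and COL1A1 are among the 10, so these values too are no support for a change of the chains as a group. The SD between samples of the per-sample chain median was 0.22. Over the 14 chains with 1 RPKM in every sample the median was 0.32. With no filter it was 0.0368 over 39 chains, beside 0.0214 for all genes. Without shRNA-UBC9 replicate 1 the median of the 16 chains was 0.19.

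**Figure D1:**
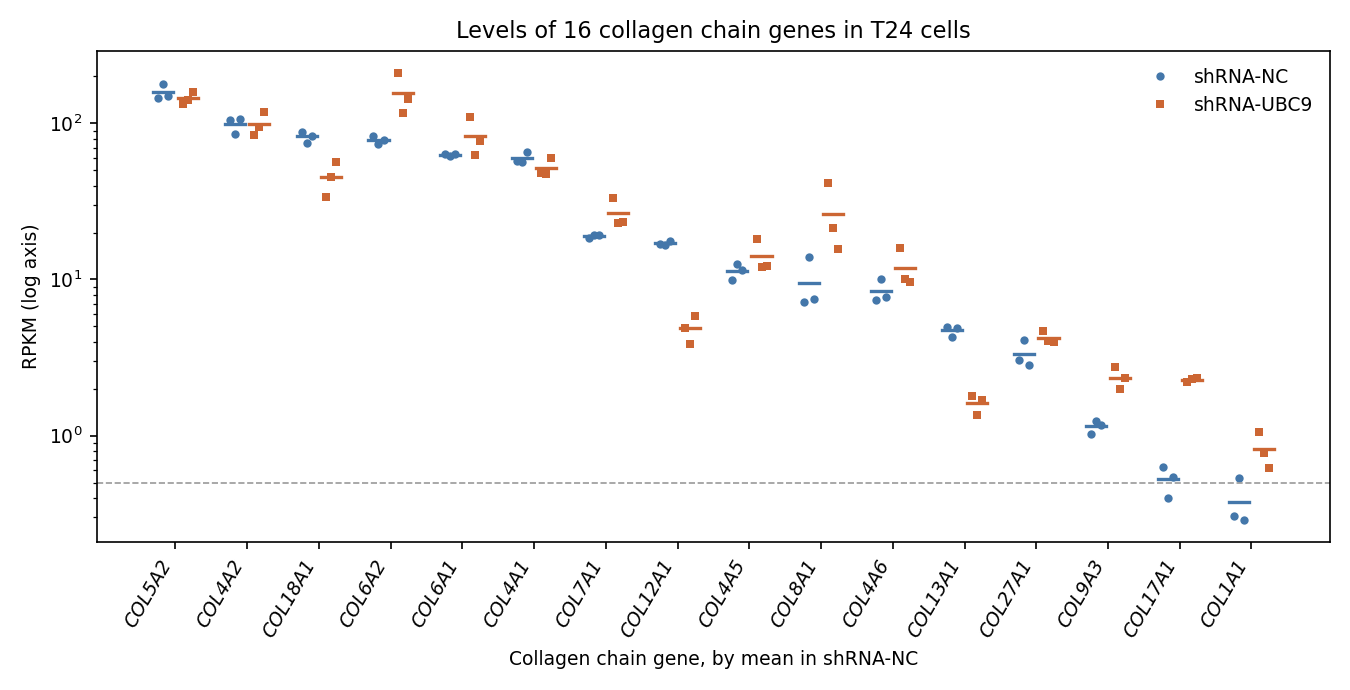
RPKM on a log axis of the 16 tested collagen chain genes, ordered by their mean in shRNA-NC; each point is 1 of 3 shRNA-NC samples (circles) or 3 shRNA-UBC9 samples (squares), the short lines are group means, and the dashed line is the filter at 0.5 RPKM. COL12A1 and COL13A1 lie lower in every shRNA-UBC9 sample, COL17A1 lies higher in every one, and the points of COL5A2, COL4A2 and COL4A1 overlap.

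**Figure D2:**
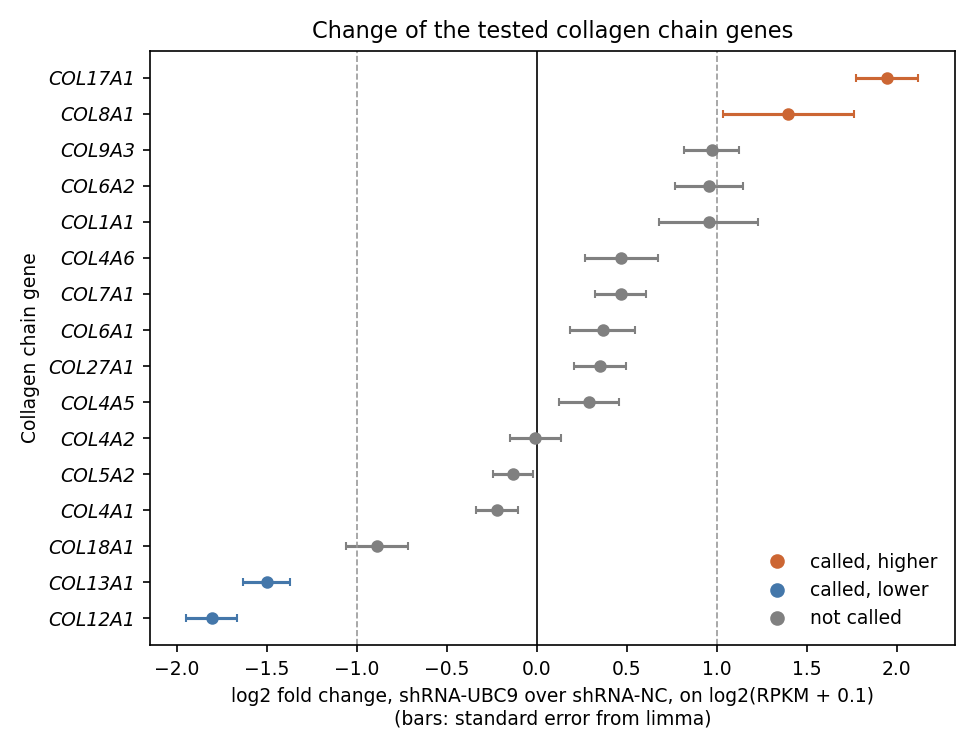
Log2 fold change of shRNA-UBC9 over shRNA-NC for the 16 tested chains on the log2(RPKM + 0.1) scale, with the standard error from limma as bars; dashed lines mark -1 and 1, and colours mark the 4 called chains. COL17A1 (1.95) and COL12A1 (-1.81) stand at the ends, and COL9A3, COL6A2, COL1A1 and COL18A1 lie just inside the dashed lines.

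Transmembrane collagens gave a chain called in each direction. COL17A1, at chr10:104031286-104085880 on the minus strand (GENCODE 44, GRCh38), had 0.631, 0.400 and 0.543 RPKM in the shRNA-NC samples and 2.20, 2.31 and 2.33 RPKM in the shRNA-UBC9 samples. All 3 shRNA-UBC9 samples were close together and above all shRNA-NC samples, of which only replicates 1 and 3 reached 0.5 RPKM, so that it passed the filter only through the shRNA-UBC9 group and its value among the tested genes is a description. It was 3.86-fold higher, with a log2 fold change of 1.95 (SE 0.17, adjusted p 0.000169). In the fit with no filter, over 22896 genes, its adjusted p was 0.00187. In shRNA-UBC9 it was still a low chain, at 2.28 ± 0.0728 RPKM (SD, n = 3). COL13A1, at chr10:69801880-69964275 on the plus strand, is found at adhesion sites and at the neuromuscular junction. Its level was 4.98, 4.27 and 4.92 RPKM in shRNA-NC and 1.79, 1.35 and 1.69 RPKM in shRNA-UBC9. The groups were far apart, with no overlap. It was 2.83-fold lower, with a log2 fold change of -1.50 (SE 0.13, adjusted p 0.000163). The summed level of the transmembrane class was 4.68 to 5.62 RPKM in shRNA-NC and 3.67 to 4.04 RPKM in shRNA-UBC9. The makeup of this class thus turned around: COL13A1 was the higher of the pair in every shRNA-NC sample and COL17A1 in every shRNA-UBC9 sample. The other members of the class, COL23A1 and COL25A1, stayed under 0.1 RPKM in all samples.

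COL12A1, the main fibril-associated chain in these cells, had the largest fall among the tested chains. The gene lies at chr6:75084326-75206267 on the minus strand. It had 17.0, 16.5 and 17.8 RPKM in the shRNA-NC samples and 4.92, 3.88 and 5.81 RPKM in the shRNA-UBC9 samples. The highest shRNA-UBC9 sample was below the lowest shRNA-NC sample by a wide margin. The group means were 17.1 ± 0.623 and 4.87 ± 0.965 RPKM (SD, n = 3 each). COL12A1 was 3.50-fold lower (log2 fold change -1.81, SE 0.14, adjusted p 8.97e-05). COL9A3, a chain of type IX collagen, which is best known from cartilage, had 1.03, 1.25 and 1.16 RPKM in shRNA-NC and 2.76, 1.99 and 2.33 RPKM in shRNA-UBC9. Its groups did not overlap, and the log2 fold change of 0.97 (SE 0.15, adjusted p 0.00207) was just under the fold threshold. It was past that threshold with a pseudocount of 0.01 and without shRNA-NC replicate 2 or shRNA-UBC9 replicate 2. Its partner chains were low: COL9A1 was listed at 0 in all samples and COL9A2 reached at most 0.315 RPKM. The opposite-strand gene TCFL5 overlaps 3.20% of the exon length of COL9A3 and averaged 6.61 RPKM in shRNA-NC and 6.07 RPKM in shRNA-UBC9. COL16A1, another chain of this class, stayed below the filter, with 0.0319 to 0.112 RPKM in shRNA-NC and 0.221 to 0.367 RPKM in shRNA-UBC9.

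COL8A1, a short-chain collagen that forms networks beneath endothelium, lies at chr3:99638475-99799226 on the plus strand. It had 7.15, 13.9 and 7.48 RPKM in the shRNA-NC samples and 41.4, 21.3 and 15.8 RPKM in the shRNA-UBC9 samples. The groups did not overlap, but the lowest shRNA-UBC9 sample lay close to the highest shRNA-NC sample and replicate 1 of shRNA-UBC9 stood above the rest. It was 2.63-fold higher, with a log2 fold change of 1.40 (SE 0.36, adjusted p 0.0184). This call was lost without shRNA-NC replicate 1 (adjusted p 0.0699), without shRNA-NC replicate 3 (0.0667) and without the filter on low genes (0.0566). With shRNA-UBC9 replicate 1 left out its log2 fold change was 1.01. COL8A2, the partner chain, stayed between 0.0228 and 0.160 RPKM, and COL10A1, the third chain of the class, was under 0.1 RPKM throughout.

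The chains of type VI collagen form the beaded filament class. COL6A1 had 63.9, 61.5 and 63.5 RPKM in shRNA-NC and 110.6, 62.7 and 77.0 RPKM in shRNA-UBC9, and its groups overlapped, with a log2 fold change of 0.37 (SE 0.18, adjusted p 0.149). COL6A2 had 83.1, 73.8 and 78.1 RPKM in shRNA-NC and 210.1, 116.4 and 143.2 RPKM in shRNA-UBC9. Its groups did not overlap, and its log2 fold change was 0.96 (SE 0.19, adjusted p 0.00597), under the fold threshold. Without shRNA-UBC9 replicate 2 it was 1.15, past that threshold. Both genes lie on chromosome 21, 93.1 kb apart and on the same strand. The ratio of COL6A2 to COL6A1 RPKM was 1.30, 1.20 and 1.23 in shRNA-NC and 1.90, 1.86 and 1.86 in shRNA-UBC9. These ratios varied little within a group and did not overlap between groups, a difference of 0.59 on the log2 scale (exact two-sided permutation test, p = 0.1, the smallest that 3 samples against 3 allow; adjusted over 3 pairs, 0.2). COL6A3, the third chain of the classical type VI molecule, reached at most 0.112 RPKM, COL6A6 stayed under 0.1, and COL6A5 was listed at 0.

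**Figure D3:**
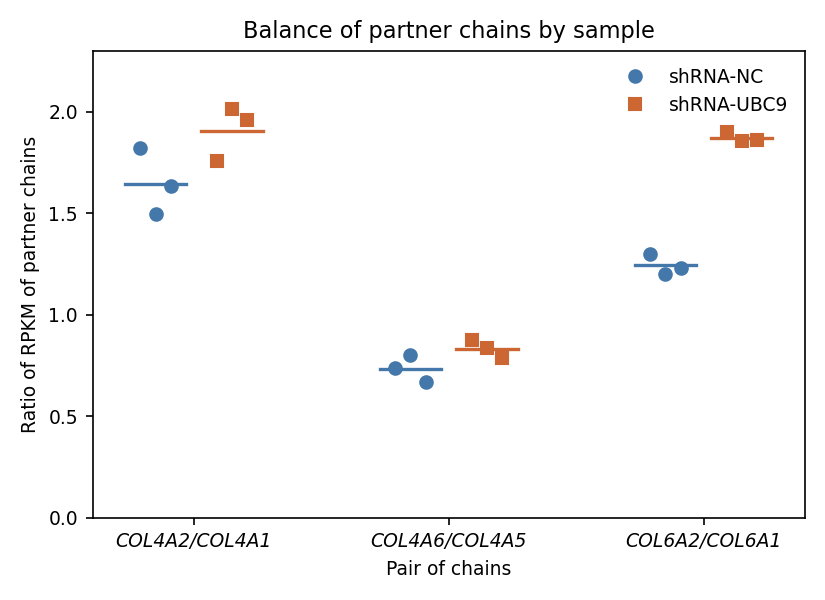
Ratio of the RPKM of partner chains in each sample, for the 3 pairs of which both chains were tested; points are the 3 shRNA-NC samples (circles) and the 3 shRNA-UBC9 samples (squares), and lines are geometric group means. COL6A2/COL6A1 lies between 1.20 and 1.30 in shRNA-NC and between 1.86 and 1.90 in shRNA-UBC9, whereas COL4A2/COL4A1 overlaps between the groups.

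The basement membrane chains of type IV collagen were abundant, and none was called. COL4A1 had 57.8, 56.8 and 65.9 RPKM in shRNA-NC and 47.8, 47.4 and 60.3 RPKM in shRNA-UBC9, with a log2 fold change of -0.22 (SE 0.12, adjusted p 0.171). COL4A2 had 105.2, 85.0 and 107.5 RPKM in shRNA-NC and 83.9, 95.5 and 117.9 RPKM in shRNA-UBC9, with a log2 fold change of -0.01 (SE 0.14, adjusted p 0.973), whose sign turned with the sample left out. The groups of both chains overlapped. COL4A5, a chain of more specialised basement membranes, had 9.95, 12.6 and 11.6 RPKM in shRNA-NC and 18.2, 12.0 and 12.2 RPKM in shRNA-UBC9 (log2 fold change 0.29, SE 0.17, adjusted p 0.211). COL4A6 had 7.34, 10.1 and 7.76 RPKM in shRNA-NC and 15.9, 10.0 and 9.60 RPKM in shRNA-UBC9 (log2 fold change 0.47, SE 0.20, adjusted p 0.104). For both of these chains shRNA-UBC9 replicate 1 was the highest sample, and the other shRNA-UBC9 samples lay within or near the shRNA-NC range. The ratios of the chains that share the windows shown above overlapped between the groups. COL4A2 over COL4A1 was 1.82, 1.50 and 1.63 in shRNA-NC and 1.76, 2.01 and 1.96 in shRNA-UBC9, a log2 difference of 0.21. COL4A6 over COL4A5 was 0.738, 0.802 and 0.671 in shRNA-NC and 0.877, 0.834 and 0.789 in shRNA-UBC9, a log2 difference of 0.18 (exact two-sided permutation test, p = 0.2 and adjusted 0.2 for both ratios). The remaining head-to-head pair, COL4A4 and COL4A3 on chromosome 2, whose starts are 418 bases apart, reached at most 0.193 and 0.0130 RPKM.

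Among the fibrillar chains COL5A2 stood alone at a high level. It had 146.2, 178.9 and 150.9 RPKM in shRNA-NC and 132.8, 141.3 and 159.7 RPKM in shRNA-UBC9, and the groups overlapped (log2 fold change -0.13, SE 0.11, adjusted p 0.374). Its mean RPKM exceeded that of 98.4% of all tested genes. COL5A1 and COL5A3, the chains with which COL5A2 builds type V collagen, reached at most 0.0507 and 0.00876 RPKM. COL3A1, which lies 19.2 kb from COL5A2 on chromosome 2 on the other strand, reached at most 0.0367 RPKM. COL1A1, the main chain of type I collagen, had 0.307, 0.535 and 0.289 RPKM in shRNA-NC and 1.06, 0.772 and 0.624 RPKM in shRNA-UBC9. It passed the filter through the shRNA-UBC9 group, so its difference is given as a description. The log2 fold change was 0.95 (SE 0.28, adjusted p 0.0276), and it was past the fold threshold with a pseudocount of 0.01 and without shRNA-NC replicate 2 or shRNA-UBC9 replicate 3. The adjusted p was over 0.05 with no filter (0.0639), with a replicate block (0.0522) and, between 0.0698 and 0.0903, without shRNA-NC replicate 1 or 3 or shRNA-UBC9 replicate 1 or 2. COL1A2, which makes up type I collagen with COL1A1, reached at most 0.0127 RPKM. COL27A1 had 3.06, 4.07 and 2.84 RPKM in shRNA-NC and 4.66, 4.01 and 4.0 RPKM in shRNA-UBC9, with overlapping groups (log2 fold change 0.35, SE 0.15, adjusted p 0.0928). COL1A1 was thus just inside the filter, and COL16A1 and COL9A2 were the highest chains outside it.

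COL18A1, a multiplexin of basement membranes whose end fragment is endostatin, had 88.7, 75.2 and 83.5 RPKM in shRNA-NC and 33.8, 45.6 and 56.7 RPKM in shRNA-UBC9. Every shRNA-UBC9 sample was below every shRNA-NC sample. The log2 fold change was -0.89 (SE 0.17, adjusted p 0.00544), under the fold threshold, and -1.07 without shRNA-UBC9 replicate 3, past it. The gene SLC19A1 on the opposite strand overlaps 18.47% of the exon length of COL18A1, and the strand setting of the counting is not given in the sources used here, so their reads may be mixed. SLC19A1 averaged 3.29 RPKM in shRNA-NC and 2.66 RPKM in shRNA-UBC9. COL7A1, the chain of the anchoring fibrils beneath epithelia, had 18.4, 19.3 and 19.2 RPKM in shRNA-NC and 33.4, 23.2 and 23.3 RPKM in shRNA-UBC9. Its groups did not overlap, and its log2 fold change was 0.47 (SE 0.14, adjusted p 0.0333). That adjusted p was over 0.05 with no filter, quantile normalization, no intensity trend or a replicate block and without any 1 of the shRNA-NC samples, at most 0.0945. COL15A1, the other multiplexin, stayed under 0.1 RPKM.

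Together the 44 chains summed to 615.5, 614.7 and 623.6 RPKM in shRNA-NC and to 746.2, 590.7 and 693.5 RPKM in shRNA-UBC9. The shRNA-NC sums lay close together, and the shRNA-UBC9 sums lay on both sides of them, so the groups overlapped. The means were 618.0 ± 4.93 and 676.8 ± 79.1 RPKM (SD, n = 3 each; exact two-sided permutation test, p = 0.4), or 0.267% and 0.288% of the RPKM of all genes. The difference of 58.9 RPKM was 24.2 without shRNA-UBC9 replicate 1 and 101.9 without shRNA-UBC9 replicate 2. COL5A2, COL4A1, COL4A2, COL6A1, COL6A2 and COL18A1 held between 82.95% and 88.67% of the sum in every sample. Within the sum, beaded filament chains held 22.0% to 23.9% in shRNA-NC and 30.3% to 43.0% in shRNA-UBC9, and COL6A2 alone held 12.0% to 13.5% and 19.7% to 28.2%. Multiplexins held 12.2% to 14.4% and 4.53% to 8.18%, and fibril-associated chains held 2.93% to 3.08% and 1.10% to 1.26%. Anchoring fibril chains held 2.98% to 3.14% and 3.36% to 4.47%, and transmembrane chains held 0.761% to 0.913% and 0.536% to 0.622%. None of these shares overlapped between the groups (exact two-sided permutation test, p = 0.1 each, the smallest possible). COL18A1 made up nearly all of the multiplexin sum and COL12A1 most of the fibril-associated sum, so these shares follow single genes described above. The shares of the fibrillar, the basement membrane and the short-chain chains overlapped. Shares of a sum depend on each other, so that a rise of 1 class lowers the others.

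**Figure D4:**
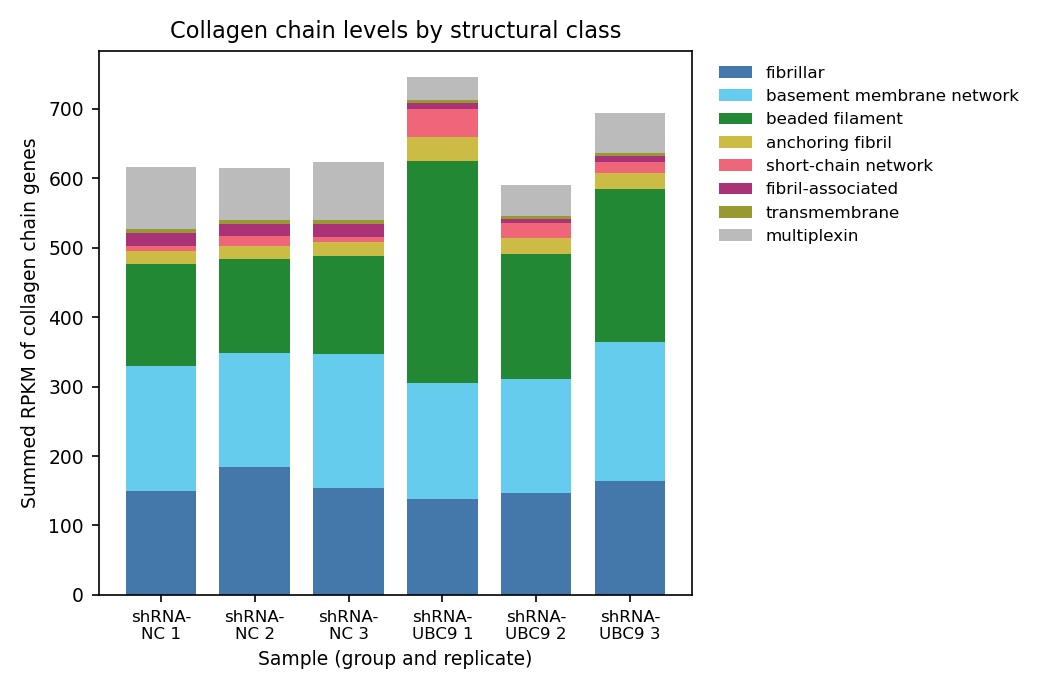
Summed RPKM of the collagen chain genes in each of the 6 samples, stacked by structural class. The beaded filament part spans 135.3 to 147.1 RPKM in shRNA-NC and 179.1 to 320.8 RPKM in shRNA-UBC9, and the multiplexin part is 75.2 to 88.7 and 33.8 to 56.8 RPKM.

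The 28 chains below the filter were at low levels or at 0. COL2A1, COL6A5, COL9A1, COL14A1 and COL22A1 were listed at 0 in all samples, and 22 of the 28 had no sample at 0.1 RPKM or more. COL4A4, COL8A2, COL9A2, COL11A2 and COL16A1 reached 0.1 RPKM in at least 3 samples, and COL6A3 in 1. By class, 8 of 11 fibrillar, 2 of 6 basement membrane, 3 of 5 beaded filament, 2 of 3 short-chain, 8 of 10 fibril-associated, 2 of 4 transmembrane and 1 of 2 multiplexin chains stayed below the filter, as did both COL26A1 and COL28A1. Of the chain genes tested, COL5A2, COL6A1 with COL6A2, COL8A1, COL9A3 and COL1A1 therefore each had a usual partner chain at or near 0.

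The genes that make, bind or break down collagen were compared in the same way. Of 36 biosynthesis genes 27 were tested and 1 was called, the up-regulated PLOD2, a lysyl hydroxylase that prepares collagen for cross-linking. This count was not above the 5.20% of all tested genes that were up-regulated. PLOD2 had 28.1, 42.4 and 32.2 RPKM in shRNA-NC and 138.9, 79.9 and 66.5 RPKM in shRNA-UBC9, with no overlap (log2 fold change 1.42, SE 0.26, adjusted p 0.00427). SERPINH1, the collagen chaperone HSP47, had 55.3, 62.3 and 55.6 RPKM in shRNA-NC and 82.3, 70.8 and 70.7 RPKM in shRNA-UBC9 (log2 fold change 0.37, SE 0.10, adjusted p 0.0184). That adjusted p was over 0.05 with a replicate block (0.0524) and without shRNA-NC replicate 1 (0.0622) or 3 (0.0731). PPIB, P4HB and LOXL2 take part in the folding, hydroxylation and cross-linking of the chains. They had log2 fold changes of 0.07, -0.07 and -0.03, with adjusted p of at least 0.5. The sign of LOXL2 turned with the sample left out. The median over the 27 genes was 0.07. Without shRNA-UBC9 replicate 1, 2 of these genes were called, 1 in each direction.

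Of 10 receptor genes 6 were tested and 1 was called, up-regulated, against 5.20% of all tested genes. ITGA2, the alpha chain of the collagen-binding integrin that pairs with ITGB1, had 28.1, 23.9 and 33.8 RPKM in shRNA-NC and 74.0, 52.8 and 51.1 RPKM in shRNA-UBC9. It was 2.06-fold higher without overlap (log2 fold change 1.04, SE 0.17, adjusted p 0.00254), and under the fold threshold without shRNA-NC replicate 2 (0.92) or shRNA-UBC9 replicate 1 (0.87). ITGB1, the partner of ITGA2, had a log2 fold change of 0.20 (adjusted p 0.146) and the receptor kinase DDR1 0.33 (adjusted p 0.0159). For DDR1 the adjusted p was over 0.05 with a replicate block (0.0546) and without shRNA-NC replicate 3 (0.0548) or shRNA-UBC9 replicate 2 (0.0652). The uptake receptor MRC2 had 0.02, whose sign turned with quantile normalization, median scaling and the sample left out.

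Of 10 degradation genes 6 were tested and 3 were called, all up-regulated, against 5.20% of all tested genes: the collagenases MMP1 and MMP13 (log2 fold changes 7.43 and 3.61) and the membrane-bound MMP14 (1.47, from 48.5 ± 9.54 to 133.9 ± 23.6 RPKM, SD, n = 3 each). Both collagenases passed the filter only through shRNA-UBC9, so that their place in this count is a description, and of the 3 degradation genes that reached 1 RPKM in every sample only MMP14 was called. With no filter the adjusted p was 0.000214 for MMP1 and 0.00426 for MMP13. CTSL, a lysosomal protease, had a log2 fold change of 0.95 (adjusted p 0.000634), past the fold threshold without shRNA-UBC9 replicate 1, and PEPD, which cleaves the dipeptides left from collagen, had 0.08.

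Of 18 genes of matrix proteins that bind collagen 9 were tested and 3 were called, all down-regulated, against 2.70% of all tested genes. THBS1, thrombospondin 1, had a log2 fold change of -3.22, and FBN1, fibrillin 1, was 2.09-fold lower, from 22.3 ± 0.501 to 10.8 ± 2.18 RPKM (SD, n = 3 each; log2 fold change -1.06, adjusted p 0.00116). Without shRNA-UBC9 replicate 2 FBN1 had -0.88, under the fold threshold. MATN2, a matrilin, fell from 1.59 ± 0.678 to 0.426 ± 0.118 RPKM (SD, n = 3 each; log2 fold change -1.63, adjusted p 0.00381), and with a pseudocount of 1 it had -0.83. Only 1 shRNA-UBC9 sample of MATN2 reached 0.5 RPKM. It thus passed the filter only through shRNA-NC, where it was high, and its place in the count of 3 is a description. With no filter its adjusted p was 0.0166. NID1, which links type IV collagen to laminin in basement membranes, had 43.8, 43.0 and 44.1 RPKM in shRNA-NC and 26.4, 26.1 and 31.8 RPKM in shRNA-UBC9 (log2 fold change -0.64, adjusted p 0.0018), without overlap and under the fold threshold. FN1, fibronectin, the highest of the list, ranged from 483.3 to 718.3 RPKM in shRNA-NC and from 292.4 to 838.0 RPKM in shRNA-UBC9, and the spread within each group was larger than the difference (log2 fold change -0.30, adjusted p 0.519), whose sign turned without shRNA-UBC9 replicate 2. SPARC, a collagen-binding matricellular protein, had 0.10. The median of the 9 genes was -0.64, against 0.36 for the 16 chains and 0.0048 for all tested genes. The first median includes MATN2 and the second COL17A1 and COL1A1, which each passed the filter only through 1 group. The lists were also chosen with earlier results known, so these medians are a description.

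**Figure D5:**
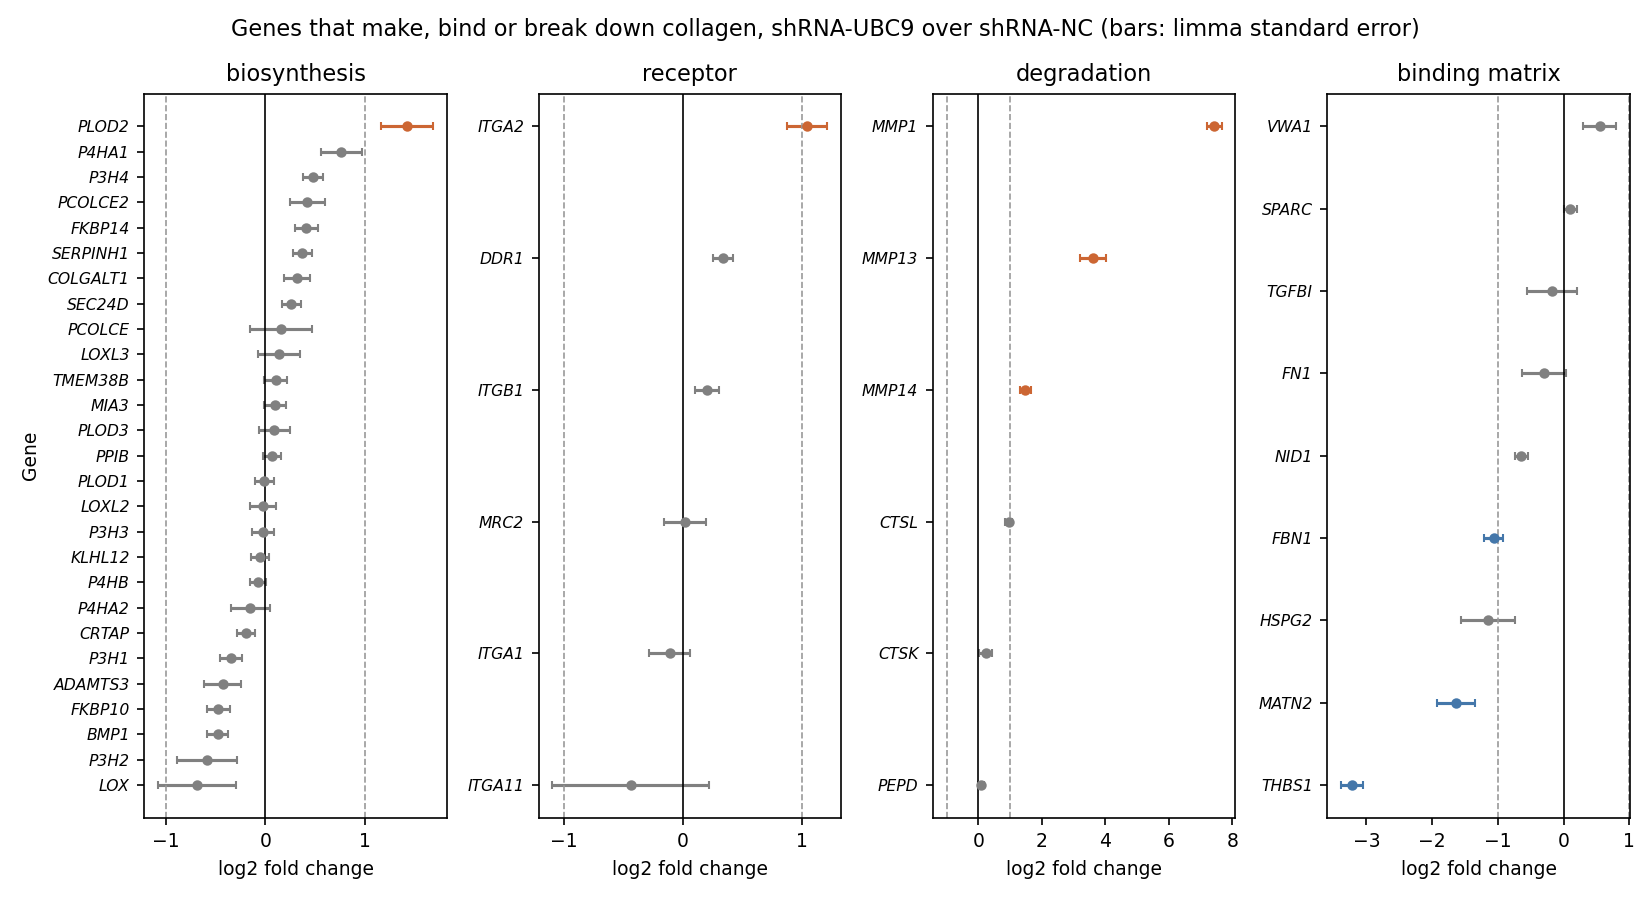
Log2 fold change of shRNA-UBC9 over shRNA-NC for the tested genes that make, bind or break down collagen, with the standard error from limma as bars; each panel is a list with its own axis, dashed lines mark -1 and 1, and colours mark called genes. PLOD2, ITGA2, MMP1, MMP13 and MMP14 are called higher, THBS1, MATN2 and FBN1 are called lower, and most biosynthesis genes lie near 0.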

How the data were processed

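The authors built polyA libraries with the Illumina TruSeq kit and mapped the reads to GRCh38 with CLC Biomedical Genomics Workbench 4 at its default settings. They deposited RPKM values for 58174 genes in each of 6 samples, which correct for gene length and mapped reads and not for RNA composition. Annotation release, strand setting and the handling of reads with several matches are not given in the sources used here. The files used here hold no counts, so precision is limited by 3 samples per group and no counting interval was given.

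The 12428 genes that reached 0.5 RPKM in 3 or more samples entered a limma fit (limma 3.58.1, R 4.3.3) on log2(RPKM + 0.1), with an intensity trend and Benjamini-Hochberg adjustment over all of them, which understates changes of low genes. Every adjusted p for a gene is from limma. Sums and ratios were compared by exact two-sided permutation tests (scipy 1.17.1). The limma step was tested on simulated data. Named genes were every tested chain, the chains with at least 0.1 RPKM in 3 samples and, of each other list, the called genes and up to 4 tested members with the highest mean. Members and lists were chosen with earlier results of these data known. A check of the shRNA's effect is not reported here. Positions and overlaps are from GENCODE 44. Alternatives were other pseudocounts, filters, scalings and thresholds, no intensity trend, a replicate block and leaving out each sample.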

Additional observations from a re-analysis of the deposited data

How the results depend on the processing

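COL12A1 and COL13A1 kept their calls under all 14 alternatives, and COL17A1 under the 13 in which it was tested. COL8A1 lost its call under 3, as given above. Over all genes 981 were called, and 552 with a pseudocount of 1 (391 up-regulated, 161 down-regulated), 552 when an RPKM of 1 was asked of every sample (342 and 210) and 4576 with no fold threshold. With no fold threshold 9 of 16 chains, 8 of 27 biosynthesis genes and 2 of 6 receptor genes were called, beside 36.8% of all tested genes. With an RPKM of 1 in every sample 1 of 3 degradation genes was called, since MMP1 and MMP13 were not tested there. The share of all genes called with that filter was 5.29%. Leaving out each sample in turn called 1 to 2 of 27 biosynthesis genes and 0 to 1 of 6 receptor genes. Over all tested genes these fits called 7.45% to 8.57%. No receptor gene was called without shRNA-NC replicate 2 or shRNA-UBC9 replicate 1. With no filter the median over 39 chains was 0.0368, beside 0.0214 for all genes, and COL16A1 was also called higher. Over the samples left out in turn the log2 fold change ranged from -0.14 to 0.11 for COL4A2, from -0.71 to 0.0536 for FN1, from -0.12 to 0.12 for LOXL2 and from -0.19 to 0.14 for MRC2. With quantile normalization MRC2 had -0.0016 and PPIB -0.0298, and with median scaling MRC2 had -0.0247. Where no construction of the alternative shows it, the cause was not tested. With the replicate number as a replicate block, 974 genes and the same 4 chains were called, and no other count of calls moved by over 1.5 times. Same-numbered samples did not deviate together (correlations -0.37, 0.07 and -0.17), so the replicate number shows no pairing. The highest correlation between the groups, 0.53, was that of shRNA-NC replicate 1 with shRNA-UBC9 replicate 3. The deviations within a group sum to 0, so positive and negative correlations must both occur between the groups. Whether these 2 samples share anything was not tested. The absolute depth is unknown, so the 28 chains below the filter cannot be called absent.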

Other observations

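Rows whose symbols begin with those of chain genes but name other genes were outside the rule. The pseudogenes COL11A2P1 and COL6A4P2 and the antisense genes COL5A1-AS1 and COL18A1-AS2 were listed at 0 in all samples. COL18A1-AS1, COL4A2-AS1, COL4A2-AS2 and COL6A4P1 did not exceed 0.11 RPKM in any sample. COL4A3BP, which encodes a ceramide transfer protein and no collagen chain, had 6.76, 7.60 and 7.24 RPKM in shRNA-NC and 8.45, 8.35 and 8.22 RPKM in shRNA-UBC9 (log2 fold change 0.21, SE 0.08, adjusted p 0.0818 in limma). Both P4HA1, the catalytic chain of the prolyl hydroxylase, and HSPG2, the basement membrane proteoglycan perlecan, were chosen after their values were seen. P4HA1 had 23.4, 31.1 and 29.6 RPKM in shRNA-NC and 66.4, 43.2 and 36.9 RPKM in shRNA-UBC9, without overlap and under the fold threshold (log2 fold change 0.76, SE 0.21, adjusted p 0.0229). HSPG2 had 31.9, 11.3 and 29.6 RPKM in shRNA-NC and 6.65, 9.77 and 14.6 RPKM in shRNA-UBC9, so its groups overlapped, and its log2 fold change of -1.15 (SE 0.41) had an adjusted p of 0.0572.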
